A study of Mus musculus with 2 samples.

Results

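The casein kinases are serine and threonine protein kinases of 2 unrelated families, and 9 of their mouse genes were followed here in embryos carrying a homozygous mutation of mDom. They were Csnk1g1, Csnk1g2, Csnk1g3, Csnk1a1, Csnk1d and Csnk1e, which encode casein kinase 1 isoforms, and Csnk2a1, Csnk2a2 and Csnk2b, which encode the catalytic and regulatory subunits of casein kinase 2. Every probe annotated to one of these symbols, or to an older synonym, was taken. This gave 9 probes of the 36227 on the array, for 8 of the 9 genes. Csnk1g3 had 2 probes and the other 7 genes had 1. No probe was annotated to Csnk2b, so its transcript was not analysed here. The family was chosen by the measured log2 ratio of Csnk1g2, which was known to be high, so its ratios are a description and no test was made of them.

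Total RNA from the embryo proper was hybridised to 1-colour CodeLink oligonucleotide arrays, 1 array for a pool of 42 wild-type embryos and 1 for a pool of 45 mDom-/- embryos. The pools were litter-matched and collected at embryonic day 8.5, when the body axis is being patterned and the neural tube is closing. mDom is the submitters' name for the gene now called Ep400, which encodes p400, an ATPase of the TIP60 chromatin-remodelling complex. The strain, the kind of mutation and any remaining p400 protein are not named in the labels. With 1 array per group there is no replicate, no SD and no p-value for any value below. Intensities are in array medians, that is, each value divided by the median of its own array, and ratios are log2 of mDom-/- over wild-type. A floor of 0.541 array medians was set, at the 40th percentile, and a signal under it was treated as not measured. The only repeated measurement was pairs of probes of the same gene, from which 1 log2 ratio had an SD of 0.25 over 1302 genes. This yardstick holds the error of probes and hybridisation and says nothing of how pools would vary.

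Casein kinase 1 enzymes act singly and often on substrates already phosphorylated by another kinase. Casein kinase 1 alpha primes beta-catenin for destruction, the gamma isoforms are anchored at the membrane through a lipid tail and phosphorylate the Wnt co-receptor LRP6, and the delta and epsilon isoforms act on Dishevelled and on the PER proteins of the circadian clock. Casein kinase 2 is a tetramer of catalytic and regulatory subunits that is active in most cells and acts on many nuclear and nucleolar proteins. Array signals report transcripts, so kinase protein and kinase activity were not measured.

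Of the 8 casein kinase genes with a probe, Csnk1g2 had the highest ratio of mDom-/- to wild-type signal, 5.52-fold, and the other 7 differed from wild-type by less than 2-fold. Csnk1g2 was the single member at least 2-fold higher, against 0.845% of the 13137 compared genes (those with a probe above the floor on at least 1 array). None of the 8 was at least 2-fold lower, against 0.929% of all compared genes. The lower count holds for the probe that stood for each gene, the brighter of the 2 in the case of Csnk1g3, whose dimmer probe is given below. All 8 genes were above the floor on both arrays, so none of their ratios was a bound. The median log2 ratio was -0.14 over the 8 genes and -0.18 over the 7 other than Csnk1g2, beside -0.0036 over all compared genes. The ratios of 6 of the 8 lay within 0.25 of 0, as did those of 63.7% of all compared genes.

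**Figure D1:**
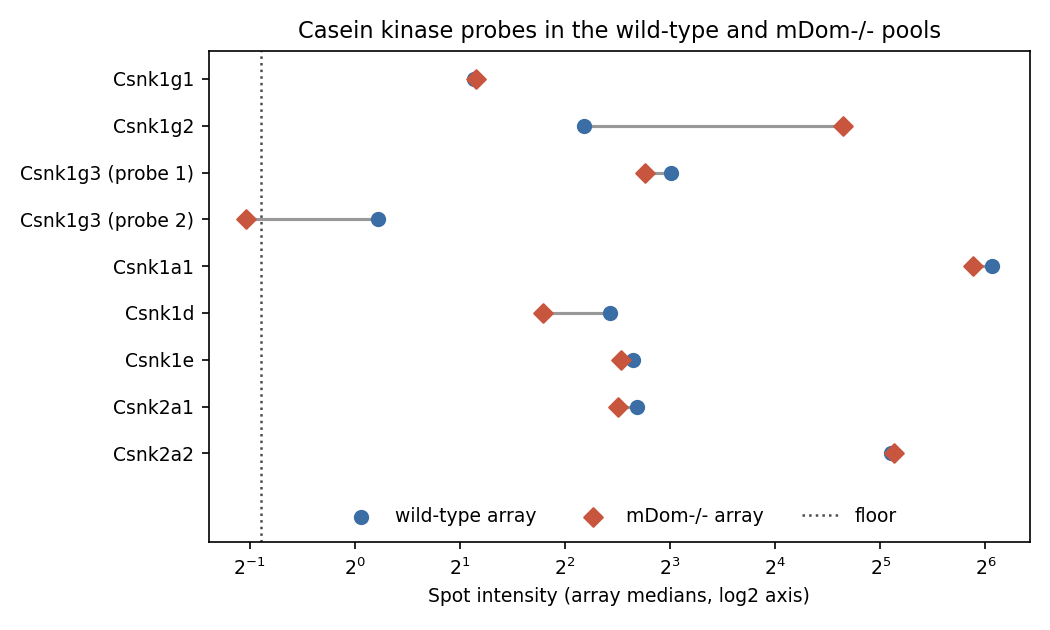
Spot intensity of each casein kinase probe in array medians (log2 axis) on the wild-type array (circles) and the mDom-/- array (diamonds), 1 array each, with the floor of 0.541 as a dotted line. The Csnk1g2 probe runs from 4.53 to 24.98, while the symbols of Csnk1g1 and Csnk2a2 nearly coincide.

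The gamma isoforms, which share the membrane anchor, did not read alike. Csnk1g2 read 4.53 array medians on the wild-type array and 24.98 on the mDom-/- array, a log2 ratio of 2.46, or 5.52-fold higher. Both signals were well clear of the floor, at 8.37 and 46.2 times its value. Csnk1g1 read 2.20 on the wild-type array and 2.23 on the mDom-/- array, a log2 ratio of 0.01, so its arrays could hardly be told apart. The brighter probe of Csnk1g3 read 8.07 on the wild-type array and 6.80 on the mDom-/- array, a log2 ratio of -0.25, at about the size of the probe yardstick. Its dimmer probe read 1.17 on the wild-type array and 0.490 on the mDom-/- array, where it was under the floor. That probe gives a bound of at least 2.16-fold lower and has a log2 ratio of -1.11 at the floor. Both Csnk1g3 probes therefore read lower in the mDom-/- pool but disagreed on the size of the difference. With the mean over both probes, the dimmer one at its bound, the gene's log2 ratio was -0.68. The ratio of Csnk1g2 exceeded that of Csnk1g1 by 2.45 and that of the brighter Csnk1g3 probe by 2.71 on the log2 scale.

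Csnk1g2 had the 7th highest log2 ratio of all 13137 compared genes. Among the 11926 genes measured on both arrays it ranked 2. Only 0.107% of the compared genes lay farther from 0 in either direction. Ratios scattered more among dim spots: with the genes measured on both arrays split by mean intensity into 4 bins of equal size, the robust SD of the log2 ratio (from the median absolute deviation) was 0.35 in the dimmest bin and 0.19 in the brightest. The value of Csnk1g2 rests on a single probe, and no second probe was annotated to the gene. Spot flags and array images were not used here, so whether that spot was damaged on either array was not tested. All 22 genes at least 3-fold higher (0.167% of the compared genes) likewise had 1 compared probe each. Most genes of the array had a single probe, as 21615 probes with 1 symbol covered 18069 genes. Of the 111 genes at least 2-fold higher, 6 had a second compared probe, which read above 0 in 6 and was itself at least 2-fold higher in 1.

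**Figure D2:**
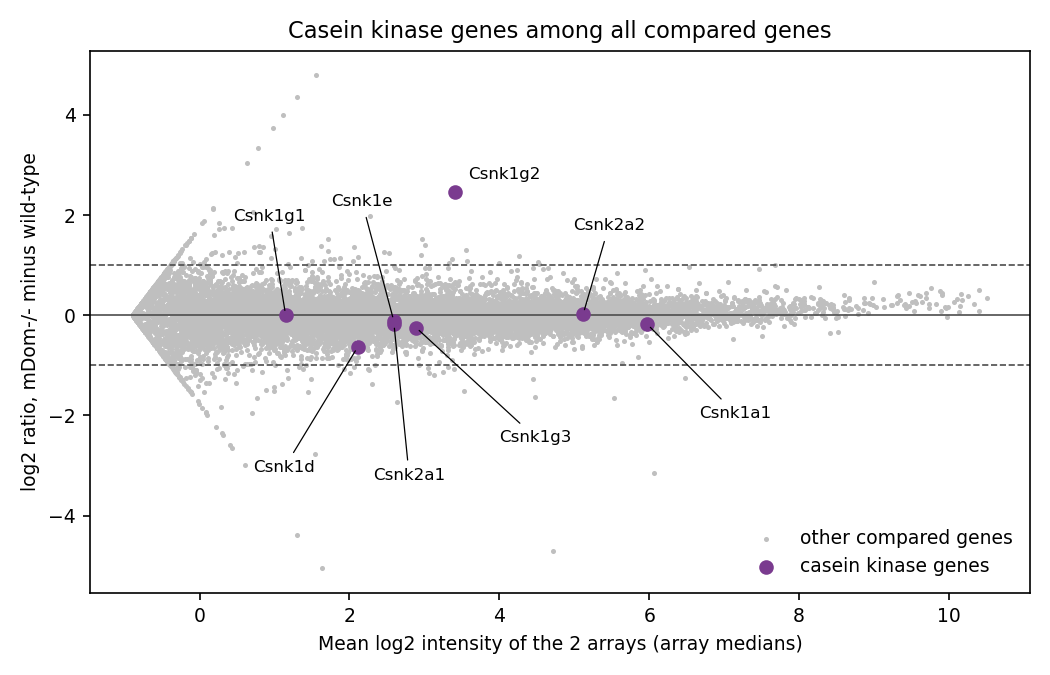
Log2 ratio (mDom-/- minus wild-type) of each compared gene against its mean log2 intensity over the 2 arrays, with the casein kinase genes in purple, other genes in grey and dashed lines at 2-fold. Csnk1g2, at 2.46, lies above the 2-fold line, and the other 7 casein kinase genes lie between -0.64 and 0.03.

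Among the alpha, delta and epsilon isoforms, Csnk1d had the lowest ratio. Its probe read 5.38 on the wild-type array and 3.45 on the mDom-/- array, a log2 ratio of -0.64, or 1.56-fold lower. The yardstick was smaller than this difference, but 6.73% of all compared genes lay farther from 0 and 4.35% were at least 1.5-fold lower. Csnk1e, the closest relative of Csnk1d and its partner in clock regulation, read 6.26 on the wild-type array and 5.80 on the mDom-/- array, a log2 ratio of -0.11. The log2 ratio of Csnk1d was 0.53 below that of Csnk1e. Csnk1a1, the beta-catenin kinase, read 67.0 on the wild-type array and 59.1 on the mDom-/- array, a log2 ratio of -0.18, which lay within the yardstick. Apart from Csnk1g2, 4 of the 5 casein kinase 1 genes had a ratio below 0, as did 50.5% of all compared genes.

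Signals for the catalytic subunits of casein kinase 2 differed little between the pools. Csnk2a1, the alpha subunit gene, read 6.42 on the wild-type array and 5.68 on the mDom-/- array, a log2 ratio of -0.18. Csnk2a2, which encodes the alpha prime subunit, read 34.4 on the wild-type array and 35.1 on the mDom-/- array, a log2 ratio of 0.03. The ratio of Csnk2a2 exceeded that of Csnk2a1 by 0.21, less than the yardstick for a single ratio. The RefSeq gene table lists pseudogenes that carry the name of this subunit (Csnk2a3, Csnk2a1-ps1 and Csnk2a1-ps), and whether transcripts of theirs reach the Csnk2a1 probe was not tested.

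Genes beside Csnk1g2 on its chromosome did not share its higher signal. In the order of the RefSeq gene table (GRCm38.p6), the protein-coding genes next to it are Scamp4, a vesicle membrane protein gene, and Btbd2. Scamp4 read 0.722 on the wild-type array and 0.0401, under the floor, on the mDom-/- array, which gives a bound of at least 1.34-fold lower. Btbd2 read 7.96 and 6.54, a log2 ratio of -0.28. On the side of Scamp4, Adat3, a tRNA deaminase subunit gene, had a log2 ratio of 0.07 and Abhd17a, a depalmitoylase gene, had -0.01. On the side of Btbd2, Izumo4 had 0.21. Mob3a had -0.58, and its second probe had -1.07 as a bound. With Scamp4 taken at its bound, the log2 ratios of these 6 genes thus ran from -0.58 to 0.21, against 2.46 for Csnk1g2.

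**Figure D3:**
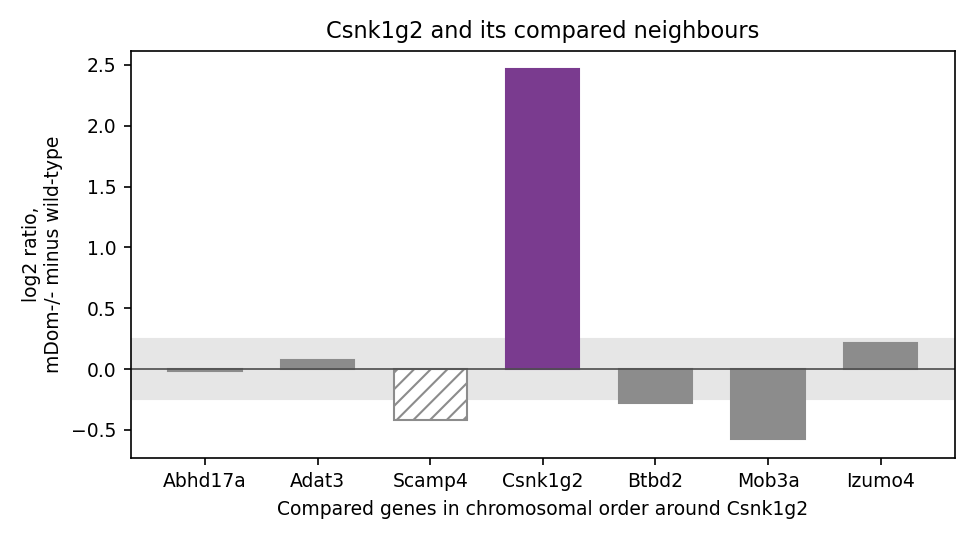
Log2 ratio (mDom-/- minus wild-type) of Csnk1g2 (purple) and of the 3 nearest compared genes on each side in chromosomal order (grey), with the band of 0.25 on either side of 0 that is the SD between probes of 1 gene. The hatched bar of Scamp4 is a bound, and no neighbour reads above 0.21.

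The genes whose pair of signals was most like that of Csnk1g2 were taken by Euclidean distance in the plane of the 2 log2 intensities, over 2 arrays and the genes measured on both. They were Pmaip1, which encodes the cell death protein NOXA (7.49 and 18.4 on the wild-type and mDom-/- arrays, distance 0.85), Pycard, which encodes an inflammasome adaptor (4.64 and 13.3, distance 0.91), and Wnt8a, a Wnt ligand gene (4.96 and 13.1, distance 0.94). Their log2 ratios were 1.30, 1.52 and 1.40, beside 2.46 for Csnk1g2. Because Csnk1g2 ranked 2 among the genes measured on both arrays, nearly any gene taken this way would have a lower ratio.

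Genes that work with the casein kinases were read from 7 lists with 51 genes, of which 45 had a probe and 41 were compared. Of these 41, 0 were at least 2-fold higher and 1 was at least 2-fold lower, beside 0.845% and 0.929% of all compared genes. Their median log2 ratio was -0.04. Of the 41, 38 were measured on both arrays, and Dvl1, Gli2 and Per2 were bounds and were counted at them, so their differences may be larger. The highest log2 ratio of the 41 was 0.65.

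Wnt signalling genes that casein kinase 1 acts with all lay under 2-fold, with Dvl1 taken at its bound. Of 8 genes fixed for the beta-catenin destruction complex, 6 were compared, and Axin2 was under the floor on both arrays. Of the 6, 5 had a ratio below 0, beside 50.5% of all compared genes. None of the 6 was 2-fold apart in either direction, and their median was -0.32. Of these 6 ratios, 2 lay within 0.25 of 0, a share of 33.3% beside 63.7% of all compared genes. Axin1, at -0.257, was just outside that range. The lowest was Amer1, a membrane scaffold of the complex, which read 10.3 on the wild-type array and 7.45 on the mDom-/- array, a log2 ratio of -0.47, with a second probe at -0.63. The highest was Apc, the scaffold that binds beta-catenin, with 0.01. Of the 5 genes on the receptor and Dishevelled list, 4 were compared, 0 were 2-fold apart in either direction and the median was 0.07. Dvl2, a Dishevelled gene, was highest at 0.22, and Dvl1 was lowest with a bound of at least 1.69-fold lower. Lrp6, whose protein is the substrate of the gamma isoforms, read 1.28 on the wild-type array and 1.27 on the mDom-/- array, a log2 ratio of -0.01. It was named as that substrate after its value was seen.

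The other kinases and anchors of the family stayed under 2-fold too. All 5 relatives in the wider casein kinase 1 superfamily were compared, with a median of -0.22 and none 2-fold apart. They ran from Vrk2 at -0.33 to Vrk3 at 0.15, both vaccinia-related kinase genes, and a second, dimmer probe of Vrk3 had -0.19. FAM83 proteins tether casein kinase 1 isoforms to sites in the cell. Of their 8 genes, 6 were compared, none was 2-fold apart and the median was 0.14. Fam83d, whose protein brings casein kinase 1 alpha to the mitotic spindle, was lowest at -0.43, and Fam83a was highest at 0.27. A second, dimmer probe of Fam83g had 0.50, above its brighter probe at 0.21.

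Of the clock genes, whose PER proteins are substrates of the delta and epsilon isoforms, 7 were compared and 6 were measured on both arrays. Those 6 had log2 ratios within 0.25 of 0. Per2 read 0.559 on the wild-type array and 0.273, under the floor, on the mDom-/- array. That gives only a bound of at least 1.03-fold lower. Every Per3 probe was under the floor on both arrays, so Per1 was the only PER gene measured on both. With Per2 at its bound, the median of the 7 was -0.0041 and none was 2-fold apart. Of the 6, Arntl, a clock transcription factor gene, was highest at 0.16 and Cry1, a clock repressor gene, lowest at -0.12. Of the Hedgehog list, all 6 genes were compared. With Gli2 at its bound, none was 2-fold apart and the median was 0.04. Sufu, the brake on GLI proteins, was highest, reading 0.602 on the wild-type array and 0.942 on the mDom-/- array, a log2 ratio of 0.65. Gli2 was lowest, with 1.02 on the wild-type array and 0.395, under the floor, on the other, a bound of at least 1.88-fold lower. Both genes were read from dim spots.

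With bounds taken as values, partners and substrates of casein kinase 2 gave the only gene of the 7 lists at least 2-fold apart. Nolc1, which encodes a nucleolar phosphoprotein heavily phosphorylated by casein kinase 2, read 1.72 on the wild-type array and 0.829 on the mDom-/- array, 2.07-fold lower. It was a dim spot with 1 probe, and it was not compared when the floor was raised to the 60th percentile. Of the 10 genes fixed for this list, 7 had a probe and were compared. Of the 7, 6 had a ratio below 0, beside 50.5% of all compared genes, and the median was -0.09. The highest was the DNA repair scaffold gene Xrcc1 at 0.28.

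**Figure D4:**
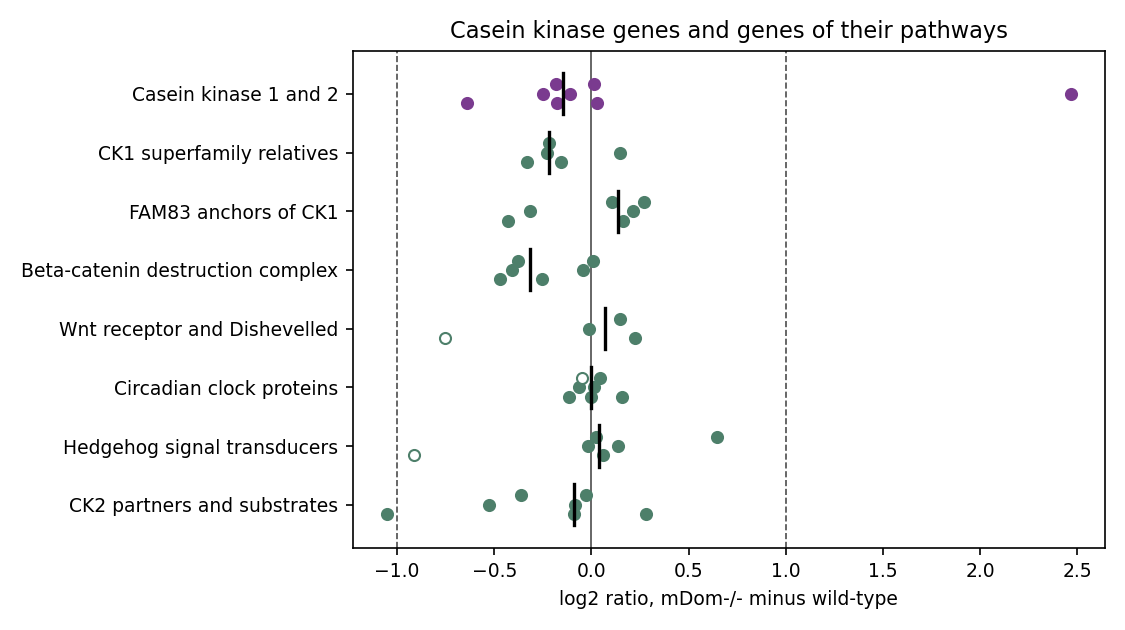
Log2 ratio (mDom-/- minus wild-type) of each compared casein kinase gene (purple) and of the compared genes of 7 pathway lists (green), with the median of each row as a black bar and dashed lines at 2-fold. Open symbols are bounds. Csnk1g2 at 2.46 is the only gene to the right of the upper dashed line and Nolc1 at -1.05 the only gene to the left of the lower one.

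Both Ep400 probes lay under the floor on both arrays, the brighter at 0.470 in wild-type RNA and 0.071 in mDom-/- RNA, so the disrupted gene did not check the labels. Of the 8 marker genes fixed for the embryo proper, 6 were compared, none was 2-fold apart and their summed signal was 45.5 on the wild-type array and 45.2 on the mDom-/- array. Sox2 had a probe under the floor on both arrays and T had no probe of its own. The summed signal of 5 compared trophoblast and decidua markers, from 8 fixed, was 40.03 and 37.93, with the defining marker Tpbpa under the floor on both arrays. Visceral endoderm and yolk sac markers summed to 679 and 872 over 9 of 10 genes, and Amn was under the floor on both arrays. Of the 9, 5 had a ratio above 0, 4 had one below 0 and none was 2-fold apart. The largest gains in signal were those of Apoc2 (128 and 242) and Ttr (167 and 251), and the lowest log2 ratio was that of Cubn at -0.62. Primitive red cell markers summed to 349 and 39.8 over 4 of 6 genes, of which 3 were at least 2-fold lower, against 0.929% of all compared genes. Most of that signal was from Hbb-y (134 and 5.12) and Hba-x (200 and 22.4). The 4th marker, Rhag, read 9.57 and 9.49, a log2 ratio of -0.01. In pooled tissue, fewer cells of a type and less RNA per cell cannot be told apart, and the part of these shifts in the casein kinase values was not tested.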

How the data were processed

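Per the labels, array images were analysed with CodeLink System Software. The deposited values are spot intensities on a linear scale, with a median of 1.05 on each array; no label says how the authors subtracted background or scaled them. The code -9999 was read as no value (105 wild-type and 106 mDom-/- probes). Probes with 1 symbol in the platform annotation (21615) were named, 21487 of them through the RefSeq table of GRCm38.p6, and 681 with several symbols were left unnamed. A further 13931 had no symbol listed, and whether any of them reads a casein kinase gene was not tested. Each array was divided by its median, values under the floor were raised to it, and log2 ratios were taken. Of several probes of a gene, the one brightest by mean log2 intensity was used. A ratio with 1 array under the floor is a bound. The number of arrays limits the precision.

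Named genes were every member probe, Ep400, each pathway gene at least 2-fold apart, each list's highest and lowest member, the 3 compared neighbours on each side of a member at least 2-fold apart, and its 3 closest genes. Members, lists and alternatives were chosen with earlier results of these data known. The ratio code was tested on simulated data. Python 3.11.15, pandas 2.3.3 and statsmodels 0.14.6 (loess span 0.3) were used.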

Additional observations from a re-analysis of the deposited data

How the results depend on the processing

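Scaling (no rescaling, the 75th percentile, quantile normalization, loess), the floor (25th or 60th percentile, none) and the mean over probes were varied in turn. The log2 ratio of Csnk1g2 ran from 2.46 to 2.49 over these 9 settings, that of Csnk1d from -0.64 to -0.61, and the median of the 8 members from -0.15 to -0.11. Of 64 member ratios recomputed, 63 moved by less than the probe SD of 0.25. The exception was Csnk1g3 with the mean over probes (-0.68, with its dimmer probe at its bound). With a 1.5-fold rule 1 member, Csnk1d, was lower; with a 3-fold rule Csnk1g2 was still past it. The median of the clock list changed sign, from -0.036 to 0.019. Nolc1 ran from -1.06 to -1.03 where it was compared. Medians of the lists and Nolc1 were added after seeing the data. No paired analysis was possible because each group had 1 array.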
